A study of Homo sapiens with 8 samples.

Results

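Some stretches of the human genome carried many sites that closed with p63 and no site from the authors' separate list of sites opened by morphogens. The autosomes were divided into fixed windows of 1 Mb, each site was placed by its centre, and the windows with 5 or more p63-closed sites and 0 opened sites were taken. They were selected from the positions in both lists. There were 40 such windows, holding 271 member sites, out of 6037 p63-closed sites in all and 14191 sites in both lists together. All positions are on hg19 and counted from 1.

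The sites come from ATAC-seq, which marks open DNA by where the Tn5 transposase inserts adapters, in 8 samples derived from H9, an established line of human embryonic stem cells, with 2 samples in each of 4 groups. The list of 8154 opened sites is attached in the labels to wild-type cells at day 0 and at day 7 of differentiation to surface ectoderm with retinoic acid (RA, 1 uM) and BMP4 (5 ng/ml). The list of 6037 p63-closed sites, named by the authors for opening with the morphogens and closing with p63, is attached to wild-type and p63-/- cells, both at day 7 with the same RA and BMP4. Cells with the transgene TetO:Tp63+/-, given doxycycline (2 ug/ml) for 2 days, belong to the series, but the labels attach neither list to them. The labels do not say whether the knockout line is 1 clone. Since p63-closed sites also opened with the morphogens by their list's name, a window with 0 opened sites is one with no site of the other list, and a site missing from a list is not shown to be unchanged. The lists give no count, signal or p-value per site, so depth is unknown, no value per sample exists here, and no test between cultures could be made.

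The TP63 gene product, p63, is a relative of p53 that binds DNA and is required for stratified epithelia such as the epidermis. RA acts through nuclear receptors and BMP4 through SMAD proteins, and together they lead pluripotent cells towards surface ectoderm, the simple epithelium from which epidermis, glands and placodes arise. Distant regulatory elements often lie far from the genes they act on, in the wide spaces around genes for developmental regulators and adhesion molecules. Open chromatin far from gene starts commonly marks such elements.

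The rule picked the end of a continuous range. Of 2591 autosomal windows with any listed site, 380 (14.7%) held 5 or more p63-closed sites and 246 (9.49%) held 0 opened sites. Both conditions were met by 40 windows, 1.54% of the 2591 and 10.5% of the 380. Just outside the rule were 22 windows with 4 p63-closed and 0 opened sites and 71 windows with 5 or more p63-closed sites and 1 opened site. Just inside it were 15 windows with exactly 5 p63-closed sites. The mirror image, 5 or more opened and 0 p63-closed sites, was found in 109 windows, 4.21% of the 2591 and 20.6% of the 529 windows with 5 or more opened sites. These counts follow from the rule and are given as a description.

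**Figure D1:**
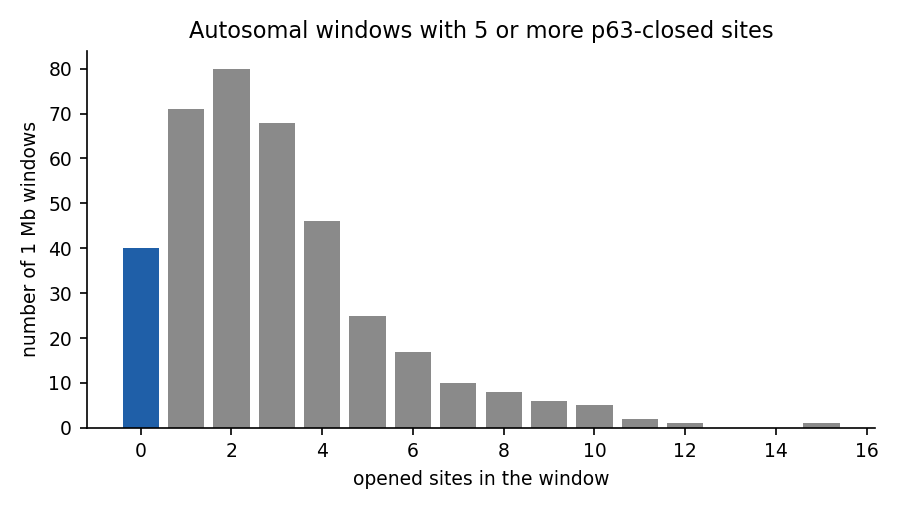
Number of autosomal 1 Mb windows with 5 or more p63-closed sites (vertical axis), by how many opened sites the same window holds (horizontal axis). The 40 windows with 0 opened sites (blue) adjoin 71 windows with 1 and 80 with 2, with no break between them.

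The member sites were 4.51% of the 6005 autosomal p63-closed sites and covered 0.467 Mb, 1.17% of the length of their windows. The windows lay on 18 of the 22 autosomes. Chromosome 5 had the most windows, 5, with 28 members. Chromosome 2 had the most members, 44 in 4 windows, which was 16.2% of all members and 7.24% of that chromosome's p63-closed sites. The highest shares of a chromosome's own p63-closed sites were on chromosome 19, where 8 of 61 (13.1%) lay in 1 window, and on chromosome 16, where 13 of 117 (11.1%) lay in 2. Chromosome 3, with 505 p63-closed sites, had 1 window with 5 members (0.990%). Chromosomes 13, 18, 21 and 22 had none, among 260, 149, 60 and 28 p63-closed sites. On chromosome 8 there was 1 window with 6 members and on chromosome 15 there were 2 windows with 10 members together. No test was made of these differences between chromosomes, since the members of 1 window are neighbours and not independent.

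Member windows held from 5 to 12 sites, with a median of 6. The 12 windows with 8 or more sites held 112 of the 271 members. From first to last site, members spanned a median of 681 kb of the window, from 231 kb to 962 kb. In 10 windows the members fitted into less than 500 kb. The windows are ranked below by their number of sites, and equal numbers by the shorter span.

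The window with the most members was on chromosome 2, at chr2:123000001-124000000, with 12 sites from 123048871 to 123887477. They formed groups rather than an even row. The last 5 lay within 100 kb, from 123803144 to 123887477, and began with the closest pair of all members, chr2:123803144-123803864 and chr2:123803889-123806330, 24 bp apart. The latter, 2442 bp wide, was also the widest site of the window. An earlier pair lay at 123048871-123049974 and 123055424-123057307. The nearest opened site to the left ended 169 kb before the window, and the nearest to the right began 1594 kb after it.

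The third window, chr2:126000001-127000000, started 3 Mb further along the same chromosome and held 11 sites from 126139651 to 126998230. These were more evenly spread: the most that any 100 kb held was 3. Its widest site was chr2:126775483-126778079, at 2597 bp. The stretches without opened sites around this window and the first nearly met. One ran from 122830928 to 125593603 with 19 p63-closed sites and the other from 125642840 to 127842232 with 16, and 2 opened sites stood between them.

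The remaining chromosome 2 windows were tighter. In the window chr2:41000001-42000000, 11 sites lay within 483 kb. There 5 sites fell within 100 kb, from 41259302 to 41351389, followed closely by members at 41367190-41369036 and 41377101-41378947. This window also held the widest site on chromosome 2 among the members, chr2:41682654-41686229, at 3576 bp. In the window chr2:140000001-141000000, 10 sites lay within 503 kb. The first 4 of these ran from 140220310 to 140287834, and the widest, 2351 bp, was chr2:140357464-140359814.

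The most compact of the large windows was chr11:80000001-81000000, where 10 sites lay within 344 kb. Neighbouring centres were a median of 20.7 kb apart and never more than 111 kb. There 5 sites fell within 100 kb, from 80337393 to 80434579. The widest was chr11:80554228-80556774, at 2547 bp. Opened sites were far from this window on both sides, 1190 kb before it and 1851 kb after it.

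On chromosome 10 the window chr10:107000001-108000000 held 10 sites over 813 kb, among them the 3360 bp site chr10:107517453-107520812. It sat next to chr10:107490945-107492117 and chr10:107501601-107503991, the 3 forming a group. The 6 windows with 10 or more sites were therefore 4 on chromosome 2 and 1 each on chromosomes 10 and 11.

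The next 6 windows held 8 sites each. Among them were chr1:177000001-178000000 (span 574 kb), chr12:84000001-85000000 (612 kb), chr1:81000001-82000000 (686 kb), chr16:64000001-65000000 (709 kb) and chr19:52000001-53000000 (846 kb). In the chromosome 16 window, 1 site stood alone at 64037183-64038710 and the other 7 began 431 kb further on. In the chromosome 19 window, 6 sites lay between 52056147 and 52312554 and the other two at 52872689-52874074 and 52900289-52902010.

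**Figure D2:**
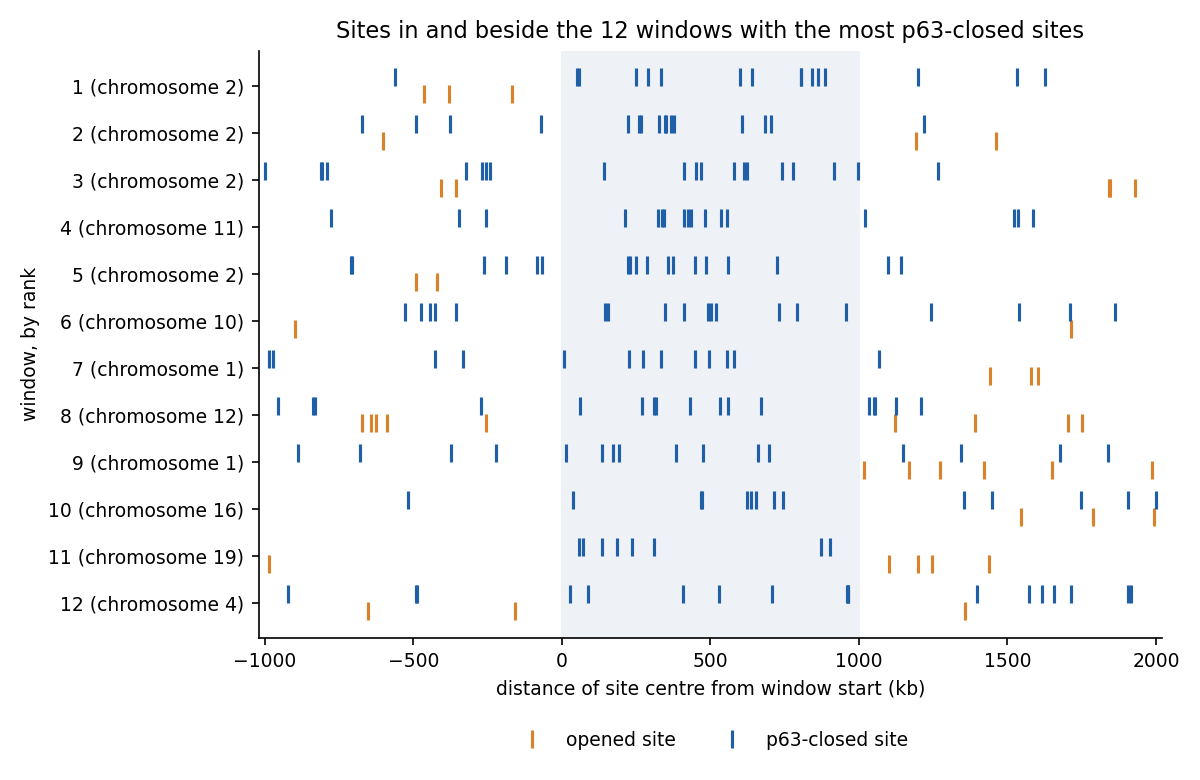
Positions of p63-closed sites (blue) and opened sites (orange) in the 12 highest-ranked windows and in 1 Mb on either side, in kb from the start of each window (horizontal axis), 1 row per window (vertical axis, rank and chromosome). The shaded megabase holds 8 to 12 p63-closed sites per row and no opened site, and in several rows opened sites return close to a border.

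Gene positions on this build were not used, so whether any member lies in a gene body, an exon or a promoter was not determined. The placements that follow come from general knowledge of the chromosome map, were made after the windows were known, and are background, not measurements. By that map, the member sites of 8 of the 12 named windows are placed between genes that follow each other. The ends of these genes were not checked on this build, and the windows themselves may overlap them. In the RefSeq gene table of GRCh38.p14, used here for the order of genes alone, each of these 8 pairs of genes has 0 protein-coding genes between them. The pairs were picked as neighbours of the windows, so this follows largely from the choice. How many other windows rich in p63-closed sites lie between such genes was not counted. No genes are given for the windows chr1:81000001-82000000 and chr19:52000001-53000000, so the placements do not describe all the named windows. The windows at 123 Mb and 126 Mb of chromosome 2 lie on either side of CNTNAP5, a neurexin-family protein of neurons, with TSN, which encodes the nucleic acid-binding protein translin, and GYPC, which encodes glycophorin C of the red cell membrane, as the outer neighbours. The window at 41 Mb lies between SLC8A1, a sodium-calcium exchanger, and PKDCC, a secreted kinase needed for skeletal growth. The member sites of the window at 140 Mb lie between NXPH2, a neurexophilin, and LRP1B, a very long gene for a receptor of the LDL receptor family.

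The chromosome 11 window lies between TENM4, one of the teneurins, cell-surface proteins of neurons, and FAM181B. The member sites of the chromosome 10 window lie between SORCS3 and SORCS1, sorting receptors of neurons. The chromosome 12 window lies between TMTC2 and SLC6A15, a neutral amino acid transporter. The member sites of the chromosome 16 window lie between CDH8 and CDH11, classical cadherins. BRINP2 lies in the chromosome 1 window at 177 Mb, as the 1 protein-coding gene between ASTN1 and SEC16B in the table. Among lower-ranked windows, that of chromosome 6 at 15 Mb, with 7 members, holds JARID2, a partner of the Polycomb repressive complex. The chromosome 16 window at 7 Mb, with 5 members, overlaps the long gene RBFOX1, a splicing factor of neurons and muscle. The chromosome 7 window at 103 Mb, with 5, holds RELN, the secreted protein reelin. The chromosome 10 window at 17 Mb, with 5, holds VIM, the intermediate filament of mesenchymal cells. These 4 were singled out after their windows were known. How often such genes fall in other windows was not counted.

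Spacing within windows ranged from tight groups to nearly even rows. The 231 pairs of neighbouring members had a median distance between centres of 60.5 kb, with quartiles of 21.1 kb and 156 kb, and a longest gap of 678 kb. In 25 pairs (10.8%) the centres were under 10 kb apart, and 7 pairs had consecutive numbers in the authors' site names. After the pair already given on chromosome 2, the next closest were chr7:118055697-118057794 with chr7:118057946-118058944, 151 bp apart, and chr14:43889626-43890066 with chr14:43890454-43891377, 387 bp apart. In 13 windows 4 or more members fell within 100 kb, in 14 the most was 3, and in 13 it was 2 or fewer. In the window chr4:98000001-99000000 no 2 of its 6 members shared 100 kb. Tight groups were also found in windows with 5 or 6 sites. In the window chr11:105000001-106000000, 5 of 6 members lay from 105191333 to 105272741. In the window chr3:61000001-62000000, 4 of 5 lay from 61050030 to 61146942.

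Distances between p63-closed sites were set beside those in other windows rich in them, without a test. Another p63-closed site lay within 50 kb of 173 members (63.8%) and of 1413 of the 2293 p63-closed sites (61.6%) in the 340 windows that had 5 or more p63-closed sites and at least 1 opened site. Within 10 kb the order was the opposite, with 49 members (18.1%) against 501 sites (21.8%). The median distance to the nearest p63-closed site was 35.4 kb for members and 32.7 kb in those 340 windows. Over all 5734 autosomal p63-closed sites that were not members, it was 77.2 kb, and 40.9% had another within 50 kb. A requirement of 5 sites per window shortens these distances in both kinds of window, so the contrast with all other sites follows partly from the rule. Opened sites in the 109 mirror-image windows stood at 32.2 kb and 60.7%.

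Site width was not used by the rule, and members were of much the same width as other sites. The median member was 1580 bp wide (quartiles 1225 and 2102 bp), the median of the other p63-closed sites 1529 bp (1177 and 2002 bp) and that of autosomal opened sites 1603 bp (1227 and 2063 bp). The 95% order-statistic interval of the median, which treats sites as independent, was 1489 to 1680 bp for members and 1507 to 1551 bp for the other p63-closed sites, and these overlap. Sites over 3 kb wide made up 13 of 271 members (4.80%), against 4.06% of the other p63-closed sites and 4.80% of opened sites. Window medians ran from 971 to 2540 bp, and 20 of the 40 were above the median of the other p63-closed sites.

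The widest members came from different chromosomes. They were chr6:15904500-15909123 (4624 bp), chr8:100697872-100702355 (4484 bp), chr4:98060709-98064388 (3680 bp), chr1:177494887-177498482 (3596 bp) and the 3576 bp site on chromosome 2 at 41 Mb. The narrowest, at 441 bp, was chr14:43889626-43890066, a member of the chromosome 14 pair given above.

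Windows next to the members held fewer opened sites than those next to other p63-closed-rich windows. Adjoining windows were not chosen for their own counts, but the rule bears on those with 5 or more p63-closed sites. These were 17 of the 80 and 135 of the 680 below. Each is either a member, with 0 opened sites, or among the other 340, with at least 1. Among the 80, the members are the 2 adjoining windows on chromosome 5. A window that adjoins 2 windows of a set is counted for each. The 80 adjoining windows held 1.81 ± 1.72 opened sites (mean ± SD over windows), against 2.65 ± 2.23 in the 680 windows adjoining the other 340. Over all 2795 autosomal windows the mean was 2.77. There was no opened site in 23 of the 80 (28.8%) and in 98 of the 680 (14.4%). The p63-closed sites were 3.20 ± 2.48 per window next to members, 2.96 ± 2.67 next to the other 340 windows and a mean of 2.15 over all autosomal windows. Counts of single windows overlapped widely between the sets. The differences in mean were not tested, because adjoining windows are not independent units. Windows without any listed site, assembly gaps included, count as 0.

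The flanks leaned to p63-closed sites. In the 80 adjoining windows there were 256 p63-closed and 145 opened sites, so that 63.8% of listed sites were p63-closed, and 52 windows held more p63-closed than opened sites, 21 fewer and 7 equal numbers. Next to the other 340 windows the share was 52.8%, and 308 adjoining windows held more p63-closed sites and 271 fewer. Over 5 windows on either side the share was 52.4% for members and 48.7% for the others. Members adjoined each other in 1 place, chr5:143000001-145000000, where 2 windows of 5 sites stand side by side, and there alone each counts as the other's flank.

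**Figure D3:**
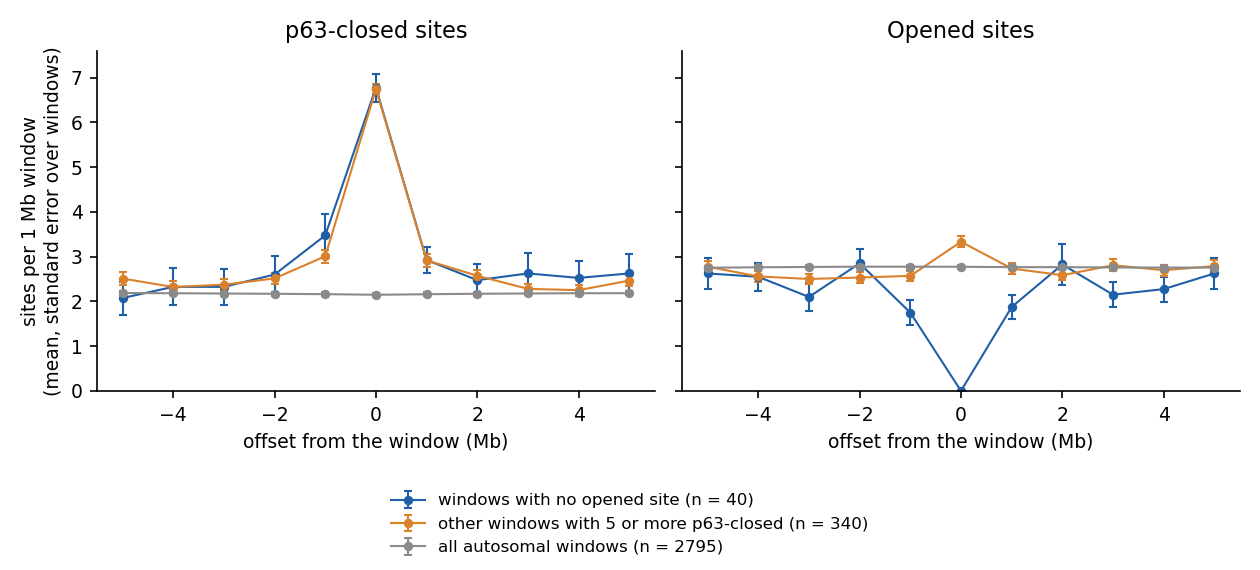
Mean number of p63-closed sites (left) and opened sites (right) per 1 Mb window, with standard errors over windows (bars), by distance in Mb from the window at 0. The bars treat windows as independent, which adjoining windows are not, and no difference was tested. Next to the 40 member windows (blue) opened sites averaged 1.75 and 1.88 on the left and right, against 2.57 and 2.74 next to the 340 other windows rich in p63-closed sites (orange); the values at 0 are set by the rule.

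Individual windows differed in their surroundings. The chromosome 11 window at 80 Mb had 0 opened sites in both adjoining windows, with 3 and 4 p63-closed sites there. The chromosome 12 window at 84 Mb stood between windows with 5 and 4 opened sites and 4 and 5 p63-closed sites. The chromosome 19 window at 52 Mb was the one named window with 0 p63-closed sites on both sides, where 1 and 4 opened sites lay. The chromosome 2 window at 126 Mb was preceded by a window with 8 p63-closed and 2 opened sites.

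The stretch without opened sites usually went well beyond the fixed borders, but only a stretch that holds a whole window could be counted, which favours long ones. Measured from the end of the last opened site before a window to the start of the next after it, it had a median length of 2.22 Mb, with a range of 1.15 to 4.77 Mb, and exceeded 2 Mb in 25 windows and 3 Mb in 10. The 578 other autosomal intervals of 1 Mb or more between opened sites had a median length of 1.34 Mb. In 36 of the 40 windows the stretch held further p63-closed sites outside the window. An opened site lay within 100 kb of a border in 13 windows, in none of them at both borders. In 18 windows no opened site lay within 250 kb of either border.

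The 40 windows lay in 39 such stretches of 92.1 Mb in all, with 422 p63-closed sites. The parts outside the windows held 151 p63-closed sites in 52.1 Mb, or 2.90 per Mb. The absence of opened sites was chosen. A whole window in these parts with 5 or more p63-closed sites would itself be a member, so the rule also limits this density. The 578 other intervals of 1 Mb or more between opened sites, which hold no member, had 1.55 per Mb. The rule lowers this value too, since every interval with a whole window of 5 or more p63-closed sites was left out. Assembly gaps were not removed, and the longest interval, 23.5 Mb on chromosome 1, held 0 p63-closed sites. These densities were not tested against each other. The autosomes as a whole held 2.16 per Mb between their first and last listed sites, assembly gaps included. Of all 617 autosomal intervals of 1 Mb or more between consecutive opened sites, 128 held no p63-closed site.

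Several of the longest unbroken series of p63-closed sites overlapped the named windows. The stretch chr2:139580430-142832873 held 21, of which 10 were members, and reached 2109 kb past the last member. The stretch chr10:106103326-108714135 held 18, of which 10 were members. The chromosome 11 stretch 78809891-82851486 held 17 over 4.04 Mb, with 10 members, and the chromosome 16 stretch 60776377-65544177 held 14 over 4.77 Mb, with 8. The chromosome 4 stretch 97072082-100155430 held 16, of which 6 were members. Of 12 stretches with 14 or more p63-closed sites, 10 held a member window. The other two, on chromosomes 20 and 10, held 17 and 14 p63-closed sites and no member.

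**Figure D4:**
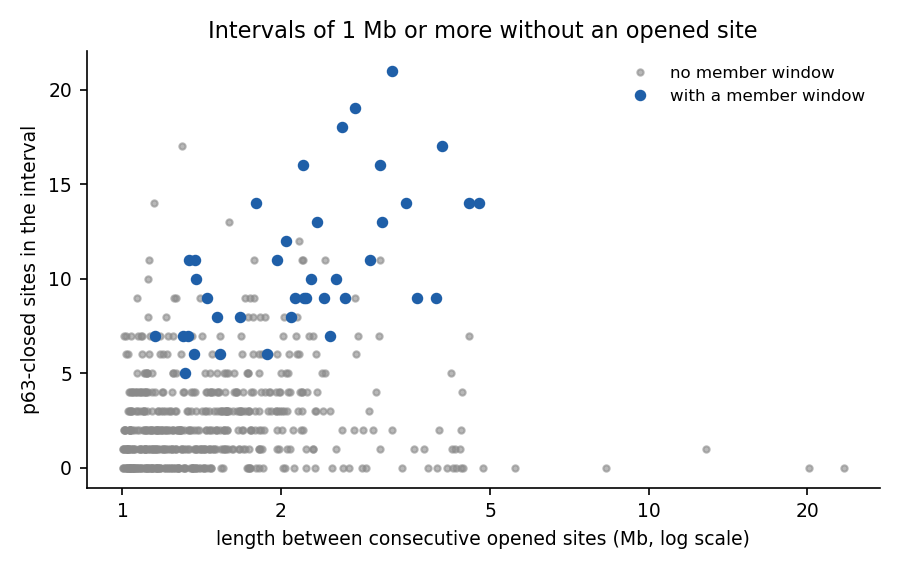
Number of p63-closed sites (vertical axis) against length in Mb on a log scale (horizontal axis) for the 617 autosomal intervals of 1 Mb or more between consecutive opened sites. Intervals with a member window (blue) hold 5 to 21 p63-closed sites, and 100 of the other intervals (grey) also hold 5 or more.

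Members lay far from opened sites, which the rule largely fixes. The median distance from a member's centre to the nearest opened site was 770 kb (quartiles 504 and 982 kb), against 111 kb (38.6 and 253 kb) for the other autosomal p63-closed sites. Over 500 kb separated 204 members (75.3%) from any opened site, against 7.88% of the others. An opened site lay within 50 kb of 1 member, chr12:94981557-94983945, at 27.4 kb, across the end of its window; among the other p63-closed sites 30.2% had one that near. The most distant member was chr16:7663651-7665081, in the RBFOX1 window, 1875 kb from any opened site, followed by chr6:123015797-123016357 at 1790 kb.

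**Figure D5:**
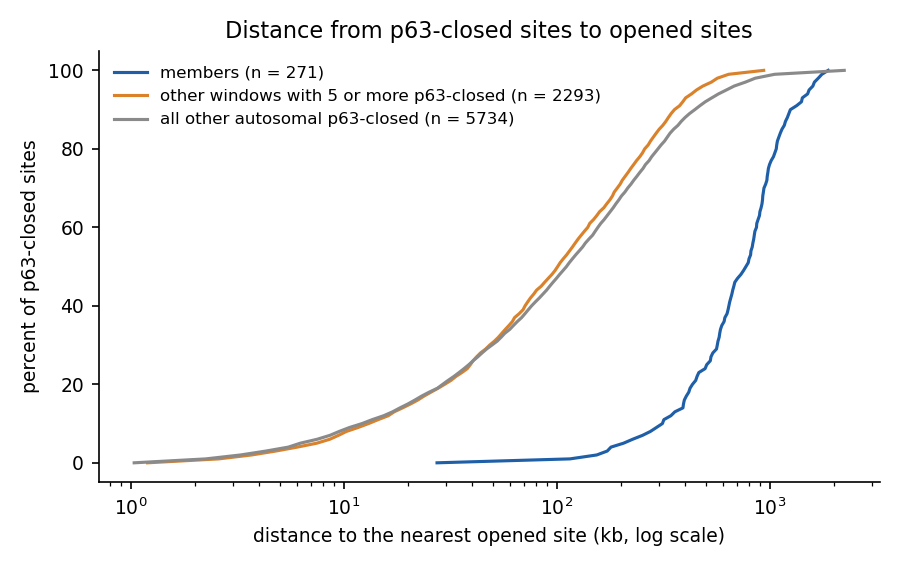
Percent of p63-closed sites (vertical axis) within a given distance in kb, on a log scale (horizontal axis), of the nearest opened site. The curve of the 271 members (blue) lies far to the right of that of the 2293 sites in other p63-closed-rich windows (orange, median 101 kb) and of all 5734 others (grey, median 111 kb), as the rule requires.

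Member windows kept away from the chromosome ends about as much as all windows rich in p63-closed sites, a set that includes them. The median distance to the nearer of the first and last listed sites of the chromosome was 39.1 Mb for members and 34.7 Mb for all 380 windows with 5 or more p63-closed sites. Within 5 Mb of either end were 1 of the 40 and 14 of the 380.

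Which sites counted as members depended strongly on where the window borders fell. With borders moved in steps of 100 kb, the 10 grids gave 40 to 51 windows, but 38 of the 271 members were found in all 10 and 155 in 5 or more. The members of the 12 largest windows were found more widely: 89 of 112 in 5 or more grids and 31 in all 10. For 19 members, the grid of whole megabases was the one grid of the 10 that found them.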

How the data were processed

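ATAC-seq was done by the authors on 8 samples in 4 groups of 2. Per the submitters' processing notes, FastQC, Bowtie2, SAMtools, MACS2 and DESeq2 were used, with the builds hg19 and GRCh37, which name the same assembly; no version, threshold or statement on pooled replicates was found in those notes. The deposited lists hold a chromosome, start, end and numbered name per site, in base pairs, and the authors gave other values for none of them. Depth is unknown.

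The members and the gene lists were chosen with earlier results of these data known. Sites were assigned to windows of 1 Mb by their centre; counts, medians and quartiles were computed with Python 3.11.15, numpy 2.4.6, pandas 2.3.3 and scipy 1.17.1. The window rule was tested on simulated data. No test is given, since sites are not replicates and the lists hold no samples. The windows named are the 12 with the most members, ties by shorter span; sites named are the widest per window for the first 6 and the 5 widest and the closest pairs over all windows; the details of 1 of the 12 windows are not reported here, with other positions chosen after they were seen. A genome and gene positions of hg19 were not used here, so sequences, motifs, base composition and the counts foreseen for gene lists are not analysed here.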

Additional observations from a re-analysis of the deposited data

How the results depend on the processing

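No paired analysis was possible because neither list gives per-sample values, which also prevents leaving out replicates. The settings for gene starts, gene bodies, base composition and motifs were not run, since no hg19 genome was used. Against 40 windows and 271 sites, a minimum of 4 p63-closed sites gave 62 windows, a minimum of 6 gave 25, and a minimum of 8 gave 12 windows with 112 sites. Allowing 1 opened site gave 111 windows with 742 sites. Windows of 2 Mb gave 13 with 115 sites, of which 69 were members, so that 25.5% of the members were kept. A margin of 250 kb without opened sites gave 18 with 120. Apart from the windows of 2 Mb, each of these changes loosens or tightens the rule by construction. Windows of 500 kb (58) and borders shifted by 500 kb (46) stayed within 1.5 times the count but kept 51.7% and 40.6% of the members. With p63-closed sites less than 5 kb apart joined into 1, 35 windows with 233 sites met the rule. The counts therefore depend in part on close sites being counted apart. Within 10 kb rather than 50 kb, 18.1% of members had another p63-closed site. The 100 kb grids and the values without chromosome 2 were chosen after the data had been seen. Without chromosome 2 the opened sites per adjoining window were 1.83 and the median distance to an opened site 687 kb. Of 53 alternative values 42 stayed near the main one. Near meant within 1.5 times for counts and within the 95% interval for medians and the share. For flank means it meant within the SD over windows. For opened sites that range, 0.0908 to 3.53, also holds the mean of all autosomal windows, 2.77, so the flank values could hardly fail. Counts that stayed near do not show that the same sites were kept. With no score in the lists, no stricter threshold could be tried.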

Other observations

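Fixed borders missed some long series of p63-closed sites. The stretch chr20:14693875-15991063 held 17 p63-closed sites in 1.30 Mb with no opened site between them, and chr10:20474866-21625193 held 14 in 1.15 Mb. At 13.1 and 12.2 sites per Mb these were denser than the 6.46 per Mb of the 21-site stretch on chromosome 2 and the 4.21 per Mb of the chromosome 11 stretch, but neither contains a whole window that meets the rule. Among the 35 intervals with 10 or more p63-closed sites, 20 held a member window and 15 did not. These intervals were looked at after the windows were known, and no test was made of them.

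On chromosome X no window met the rule: with it included the count of windows was still 40.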
